A study of Mus musculus with 10 samples.

Results

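Most regulatory DNA of an epithelial cell lies away from gene starts, in enhancers, silencers and insulator sites that regulate genes over distances of many kilobases. Such elements become accessible when transcription factors displace nucleosomes, and the set that is open largely defines the identity of the cell. In intestinal epithelium the nuclear receptor HNF4 and the homeobox factor CDX2 act at enhancers of differentiated cells, AP-1 and TEAD factors act at enhancers engaged in growth and repair, and CTCF binds insulator sites that are shared by most cell types. The regions described here are the narrow distal sites of colon organoids that carried a peak of open chromatin in every library, whatever the medium or genotype.

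Omni-ATAC-seq, in which a transposase cuts and tags accessible DNA, was applied to live sorted cells. The organoids were 3-dimensional epithelial cultures from crypts of the whole colon of WT mice and of mice in which Villin-Cre deleted a floxed *Ahr* in epithelial cells (AHR KO). AHR is the aryl hydrocarbon receptor, a ligand-activated transcription factor. Both media hold EGF, Noggin and R-spondin. Per the study's methods WENR adds Wnt3a-conditioned medium, SB202190, A83-01 and nicotinamide, and d4 ENR organoids had spent 4 days in ENR, which lacks these additions, so the effects of Wnt3a and of the other additions cannot be told apart. There were 2 WT WENR, 3 AHR KO WENR, 3 WT d4 ENR and 2 AHR KO d4 ENR libraries. The study's methods describe organoid cultures from several mice of each genotype as biological replicates, without saying which mouse each of these libraries came from. Nothing in the labels says whether the libraries came from separate mice or lines, so p-values measure the spread between these libraries, which may be technical.

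Peaks of all 10 libraries that shared at least 1 bp were merged into 85680 consensus regions, of which 28205 held a peak of every library. The narrow distal regions were those less than 2500 bp wide whose midpoint lay more than 5 kb from each transcription start of a protein-coding gene. There were 12671 of them among 58114 distal regions. Members were selected on the peak calls of these same libraries and on width and position, so that they are open in all libraries is the rule and not a result. The widest member spanned 2499 bp (chr1:91463347-91465845, nearest the clock gene *Per2*) and the narrowest region left out for its width spanned 2500 bp (chr1:89088577-89091076, nearest *Sh3bp4*). The member closest to a start lay 5002 bp from it (chr19:38091456-38092683, nearest the fatty acid receptor gene *Ffar4*) and the nearest region outside the limit lay at 5000 bp (chr13:112867570-112868468, nearest *Mtrex*).

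The sequences of 9 members are shown first, because they hold motifs whose members are described as classes below. HNF4, AP-1 and CTCF consensus letters were searched on both strands in the central 400 bp, and 40 bases are printed on each side of the match nearest to the midpoint. The sequences are those of the GRCm38 reference, plus strand, with the match in capitals. The first 3 are the members with an HNF4 match (CAAAGTCCA or its reverse complement) whose height rose most in d4 ENR.

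Acer1, chr17:56963743-56963831: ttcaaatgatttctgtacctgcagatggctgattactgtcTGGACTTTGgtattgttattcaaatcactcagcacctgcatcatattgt
Sptssb, chr3:69872885-69872973: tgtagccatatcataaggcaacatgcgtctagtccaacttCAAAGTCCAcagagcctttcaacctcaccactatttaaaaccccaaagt
Gm47289, chr9:119165699-119165787: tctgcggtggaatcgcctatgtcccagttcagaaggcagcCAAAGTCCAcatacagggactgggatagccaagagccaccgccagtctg

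The next 3 are the members with an AP-1 match (TGANTCA) whose height fell most in d4 ENR. In each of them the match is TGAGTCA or its reverse complement.

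Kirrel3, chr9:34279967-34280053: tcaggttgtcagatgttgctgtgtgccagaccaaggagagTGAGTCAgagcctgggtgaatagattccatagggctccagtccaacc
Atp2b1, chr10:99047637-99047723: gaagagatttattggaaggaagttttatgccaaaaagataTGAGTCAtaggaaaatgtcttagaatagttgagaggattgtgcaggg
Cubn, chr2:13410340-13410426: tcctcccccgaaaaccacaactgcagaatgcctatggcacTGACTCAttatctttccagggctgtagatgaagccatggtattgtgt

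The last 3 are the members with a CTCF match (CCA, AG and GGC, each 2 unspecified bases after the one before) whose heights varied least over the 10 libraries.

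Arntl, chr7:113254058-113254149: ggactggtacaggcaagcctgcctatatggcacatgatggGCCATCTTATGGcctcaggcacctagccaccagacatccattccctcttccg
Prag1, chr8:36155631-36155722: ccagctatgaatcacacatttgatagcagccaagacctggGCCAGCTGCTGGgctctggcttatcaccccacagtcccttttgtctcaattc
Prkra, chr2:76611465-76611556: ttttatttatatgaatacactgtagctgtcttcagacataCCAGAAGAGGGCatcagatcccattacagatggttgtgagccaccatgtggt

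Height is given throughout as relative height, the mean pileup (fragments covering a base) of a library's peaks in a region divided by the median of that library over the 28205 regions called everywhere, so that a value of 1 is the height of the middle region. The intronic region of *Acer1*, an alkaline ceramidase, stood at 0.216 and 0.215 in WT WENR and at 0.263, 0.199 and 0.120 in AHR KO WENR. In d4 ENR it stood at 0.916, 1.38 and 1.49 in WT and at 1.02 and 0.886 in AHR KO. All d4 ENR libraries were above all WENR libraries, with a difference of 2.44 ± 0.19 on the log2 scale (SE) and an adjusted p of 1.63e-07 (limma, Benjamini-Hochberg over all 28205 regions). The region nearest *Sptssb*, a small subunit of serine palmitoyltransferase, the enzyme that starts sphingolipid synthesis, lay between 0.126 and 0.250 in WENR and between 0.743 and 1.03 in d4 ENR. Its log2 difference was 2.16 ± 0.18. The AP-1 match nearest *Kirrel3*, a cell adhesion gene, went the other way, with 1.84 and 2.03 in WT WENR, 1.91, 2.35 and 2.52 in AHR KO WENR, 0.468, 0.453 and 0.468 in WT d4 ENR and 0.644 and 0.533 in AHR KO d4 ENR. The groups did not overlap, and the log2 difference was -2.0 ± 0.10 with an adjusted p of 1.60e-08 (limma). Its 0.468 in WT d4 ENR 1 was close to the lowest member of that library, 0.440, and its unscaled pileup in d4 ENR was 11.7 to 32.9 fragments. A region that fell further could have lost its call, and so its membership. In an intron of *Cubn*, an endocytic receptor, relative height fell from 1.15 to 2.09 in WENR to 0.351 to 0.507 in d4 ENR. The CTCF match in an intron of *Arntl*, a core clock gene, in a region that also held HNF4 letters, stayed between 0.838 and 0.935 in all 10 libraries, and those nearest *Prag1* and *Prkra* spanned 0.661 to 0.767 and 1.38 to 1.64. The 3 CTCF members were picked for their small range.

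**Figure D1:**
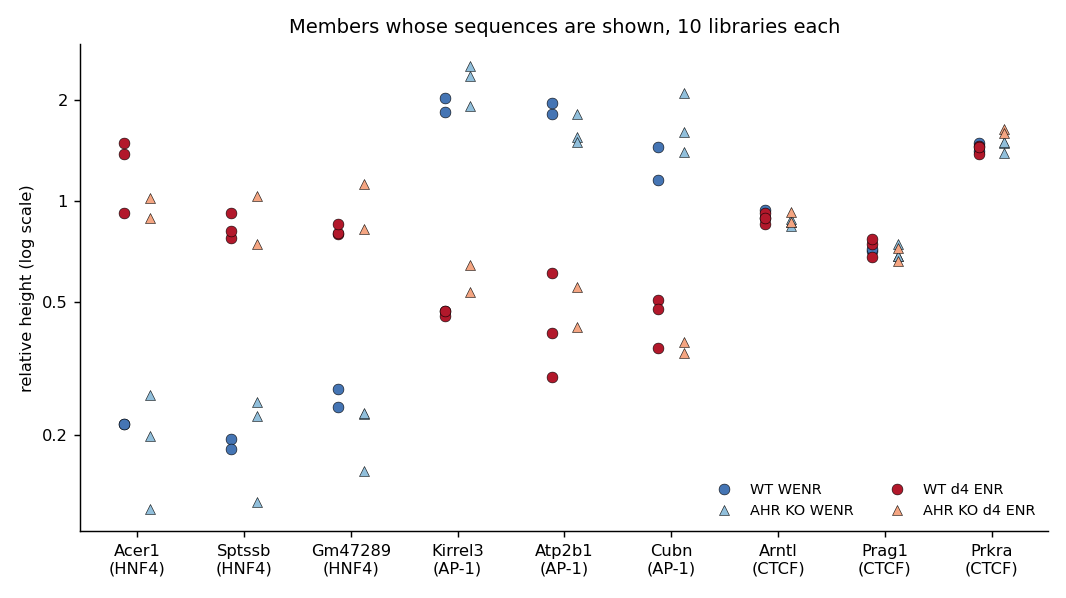
Relative height (log scale, 1 is the library's median region) of the 9 members whose sequences are shown, by nearest gene and motif. Each point is 1 library, circles are WT and triangles AHR KO, blue is WENR and red is d4 ENR. The HNF4 members, picked as those that rose most, lie higher in every d4 ENR library, the AP-1 members, picked as those that fell most, lower in every one, and the CTCF members, picked for a small range, overlap in all groups.

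The 12671 members had a median width of 1235 bp and a median distance of 24305 bp to the nearest start. Their midpoints fell in introns (5824, 46.0%) about as often as between genes (5804, 45.8%), with 565 in exons and 478 beside starts of genes that are not protein-coding. GC content of the central 400 bp had a median of 46.5%, against 63.5% in the 11488 regions open everywhere within 1 kb of a start. In 11868 members each library had exactly 1 peak, and a median of 464 bp was covered in all 10 libraries. In 110 members no single base was covered by all 10. Repeats masked in the reference took up over 50% of the central 400 bp in 964 members (7.61%).

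Members were spread over 5796 nearest genes, 3095 of which had a single one. The gene with most members nearest to its start was *Klf6*, an early response zinc finger gene, with 27, followed by *Pde4d*, a cAMP phosphodiesterase, with 22. *Myc*, the Wnt-responsive growth regulator, had 18 members between 51147 and 513738 bp from its start, of which 10 were lower and 4 higher in d4 ENR. *Bmp2*, a ligand of the BMP pathway active in differentiated colonocytes, had 16 members, of which 11 were higher and 3 lower. The median log2 differences over these members were -0.378 for *Myc* and 0.441 for *Bmp2*. Of all 12671 members, 5181 were higher and 2662 lower, with a median of 0.158. *Myc* and *Bmp2* were singled out, and other genes with many members varied in direction. Higher and lower counts were 9 and 7 for *Klf6*, 4 and 5 for *Pde4d* and 6 and 7 for *Tbc1d1*. They were 4 and 5 for *Zfp608* and 3 and 6 for both *Klf4* and *Mecom*. For *Babam2* they were 6 and 2, and for *Cited2* 8 and 2. The nearest start is a label for a place and does not show which gene a region regulates.

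The letters of several motifs differed in frequency between these regions and gene starts, which is given as a description with no test. An AP-1 match was found in 28.7% of members, in 6.17% of the open regions within 1 kb of a start, in 16.7% of the 1366 wide distal regions open everywhere, in 23.5% of all consensus regions and in 27.5% of the 44077 distal regions called in only 1 to 9 libraries, close to the share of members. HNF4 letters were found in 2.38% of members and 1.55% of all consensus regions, CDX letters (GTCATAAA or GCCATAAA) in 6.69% and 4.75%, and TEAD letters (ACATTCC or GCATTCC) in 13.9% and 12.6%. In the distal regions called in 1 to 9 libraries these shares were 1.58%, 5.51% and 14.3%. A CTCF match was found in 3.84% of members, which is below the 7.93% of the distal regions called in 1 to 9 libraries and the 6.69% of all consensus regions. Searched over whole regions instead, the shares were closer, 11.5% of members and 12.7% of all consensus regions. AHR:ARNT letters (TNGCGTG) were found in 4.38% of members and 4.83% of all consensus regions. Matches in members were only slightly concentrated at the midpoint. The central 100 bp of the window held 28.6% of AP-1, 32.0% of HNF4, 27.8% of CDX, 26.6% of TEAD and 26.4% of CTCF match positions. These shares are little above those of an even spread, so many matches may be letters met by chance. A match describes letters in a window and is not a bound site.

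Between 30354729 and 49126792 fragments lay behind each library, and a smaller part of the d4 ENR libraries lay in peaks. The share of all coverage that fell in peaks was 63.0% to 68.6% in WENR, 14.1%, 24.4% and 30.9% in WT d4 ENR and 33.8% and 44.2% in AHR KO d4 ENR. Fragments averaged 235 to 255 bp in the WENR libraries and 156 to 221 bp in those of d4 ENR. Within d4 ENR both measures were higher in each AHR KO library than in each WT library. The median pileup of members per 10M fragments was 18.9 to 20.2 in WENR and 5.24, 7.38, 9.15, 10.2 and 12.9 in d4 ENR. Of 10 marker genes of colon epithelium, 9 had a peak within 1 kb of a start in all 10 libraries, with *Krt20*, a marker of mature surface cells, called in 1. Of 9 markers of other cell types, *Col1a1* and *Pdgfra* were called in 10 libraries, *Acta2* in 5, *Des* in 3 and *Ptprc* in 1, and *Cd3e*, *Pecam1*, *Cdh5* and *Col3a1* in none. The deleted part of *Ahr* could not be checked, since exons 1, 2 and 3 held no peak in any library.

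**Figure D2:**
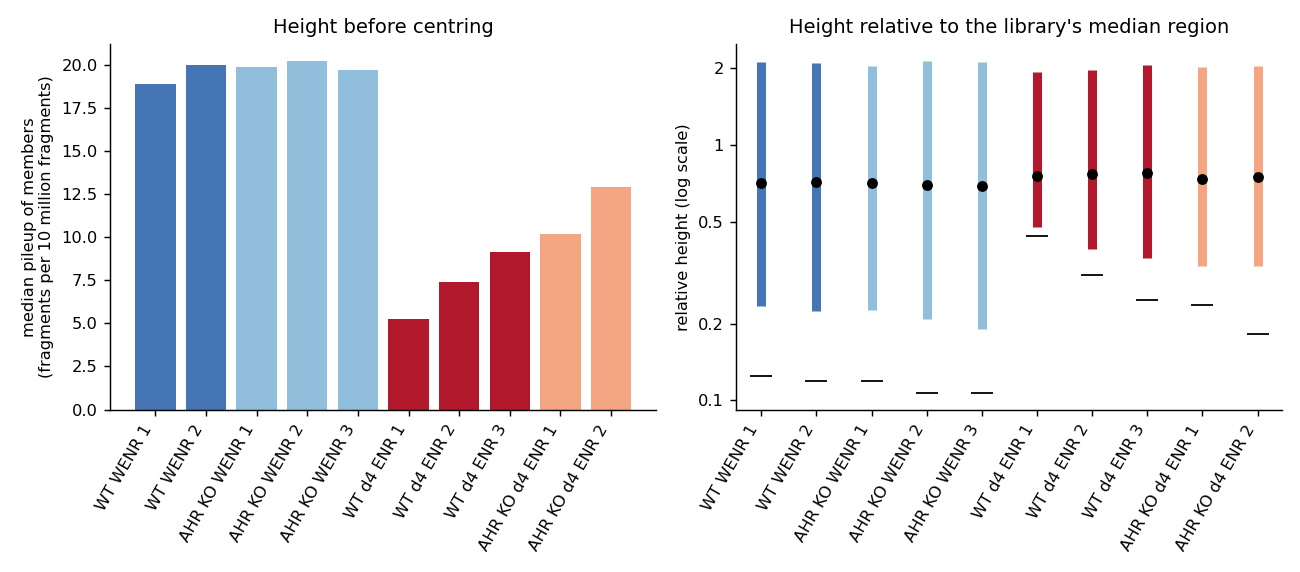
Height of the 12671 members in each library. Left, bars give the median pileup per 10M fragments. Right, relative height on a log scale, with coloured bars from the 5th to the 95th percentile, dots at the median and dashes at the lowest member. Medians of relative height were 0.690 to 0.715 in WENR and 0.733 to 0.779 in d4 ENR, and the lowest member stood at 0.107 to 0.125 in WENR and 0.182 to 0.440 in d4 ENR.

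Relative to the library's middle region, members stood slightly higher in d4 ENR than in WENR. Their median relative height was 0.709 and 0.715 in WT WENR, 0.712, 0.696 and 0.690 in AHR KO WENR, 0.754, 0.769 and 0.779 in WT d4 ENR and 0.733 and 0.748 in AHR KO d4 ENR. The media did not overlap, although the step is small. The median log2 difference was 0.158 over members, 0.0891 over all 28205 regions, 0.0618 over regions within 1 kb of a start and -0.0161 over wide distal regions. It was 0.183 in WT and 0.130 in AHR KO. The excess of members over all regions depended on the height used. By the authors' fold enrichment over the local background the median was 0.00977 over members and 0.0664 over all regions, by pileup times length 0.100 and 0.102, and after quantile normalization 0.00574 and 0.0043. Scaled by fragment total alone, with no centring, the median over all 28205 regions fell by 1.13 on the log2 scale in d4 ENR, and differences are given relative to this shift.

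Many more members differed by medium than by genotype. Height differed in 7843 of 12671 members, with 5181 higher (40.9%) and 2662 lower (21%) in d4 ENR, against 31.4% higher and 17.7% lower among all 28205 regions tested. In WT alone 6290 members differed (49.6%, against 39.6% of all regions) and in AHR KO alone 5601 (44.2%, against 29.7%). Of the 7843, 7726 had the same sign in both genotypes. A difference of at least 2-fold was called up in 1405 members (11.1%) and down in 290 (2.29%), against 6.44% and 1.34% of all regions and 1.43% and 0.252% of regions within 1 kb of a start. These shares were not matched for height, and members were weaker, with a median relative height of 0.713 against 0.976 for all regions. A weak region that fell 2-fold could lose its call in a d4 ENR library, and so its membership, while a rise had no such limit. All d4 ENR libraries were above all WENR libraries in 3807 members (30.0%) and below them in 1790 (14.1%), against 22.4% and 11.9% of all regions. The balance of higher to lower calls moved with the scaling. It was 3058 (24.1%) to 2873 (22.7%) with fold enrichment as height, against 31.6% and 17.9% of all regions, so that higher calls were then less frequent among members than among all regions. It was 3394 to 3297 after quantile normalization and without centring 10708 of 10909 calls were lower. Without WT d4 ENR 1, the library with the least coverage in peaks, 17657 regions met the rule and 11876 of them differed, with 7893 higher and 3983 lower.

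Higher calls were concentrated among the weakest members. With members split into 5 groups of equal size by mean height, the median log2 difference was 0.758 in the weakest group, with 2003 higher and 27 lower, then 0.282, 0.0282 and -0.0386, and -0.0560 in the strongest group, with 507 higher and 811 lower. A region had to be called in every library to be a member, and the lowest relative height of a member was 0.107 to 0.125 in WENR but 0.440 in WT d4 ENR 1. Weak regions that fell under the limit of a call in a d4 ENR library were thereby left out by the rule, while weak regions that rose were kept.

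**Figure D3:**
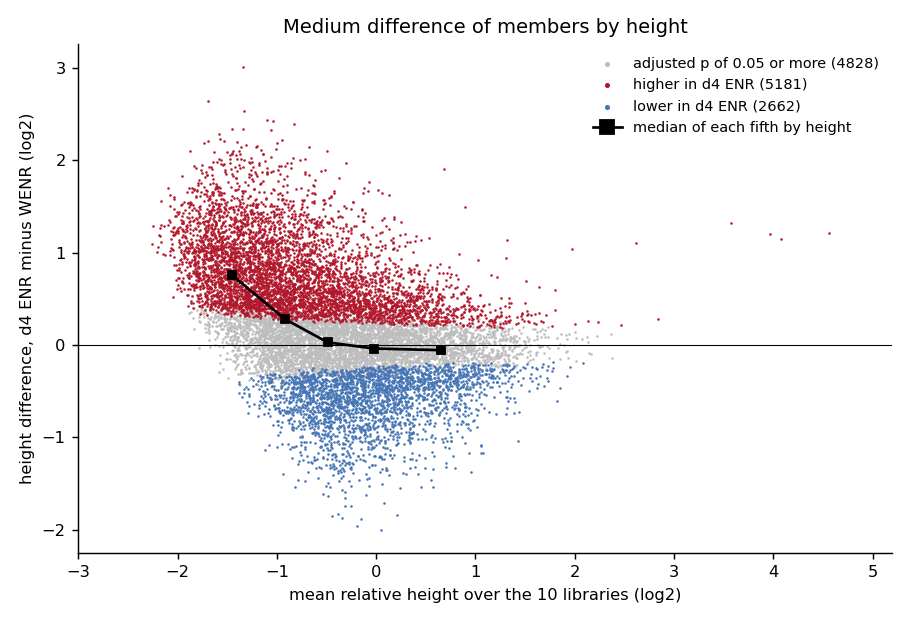
Height difference of each of the 12671 members (log2, d4 ENR minus WENR) against its mean relative height (log2). Red points were called higher (5181), blue points lower (2662) and grey points neither, and black squares are the medians of 5 groups of equal size by height. The medians run from 0.758 in the weakest group to -0.0560 in the strongest.

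Most members with an HNF4 match rose, and members with an AP-1 match fell about as often as they rose. Of the 302 members with HNF4 letters, 166 were higher (55.0%) and 27 lower (8.94%), with a median log2 difference of 0.347. Of the 3640 with AP-1 letters, 1055 were higher (29.0%) and 1116 lower (30.7%), with a median of -0.00144 against 0.158 over all members. Among all tested regions, which include the members, those with HNF4 letters were 49.5% higher and 10.1% lower, with a median of 0.265. Those with AP-1 letters were 27.5% higher and 28.6% lower, with a median of 0.00267. The contrast between these motifs is therefore not shown to be particular to members. The median relative height of AP-1 members was 0.803 and 0.826 in WT WENR, 0.822, 0.815 and 0.824 in AHR KO WENR, 0.764, 0.783 and 0.782 in WT d4 ENR and 0.731 and 0.758 in AHR KO d4 ENR. Every d4 ENR library was below every WENR library, the reverse of members as a whole. For HNF4 members the medians were 0.631 to 0.679 in WENR and 0.771 to 0.885 in d4 ENR, again without overlap.

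AP-1 members, all members and HNF4 members had medium differences in the same order in each group by height. In the 5 groups by height, from the weakest to the strongest, the median log2 difference of AP-1 members was 0.604, 0.144, -0.143, -0.154 and -0.119, below that of all members, and the median of HNF4 members was 0.928, 0.549, 0.265, 0.233 and 0.0698, above it. With fold enrichment as height the medians were -0.0421 for AP-1, 0.0529 for HNF4 and 0.00977 for all members, and after quantile normalization -0.127, 0.220 and 0.00574. HNF1 members (GTTAATNAT) had a median of 0.237, FOXA members (TGTTTAC) 0.220, TEAD members 0.126 (but -0.0156 by fold enrichment and -0.0268 after quantile normalization) and CDX members 0.163. CTCF members had a median of 0.229, with 212 of 486 higher and 63 lower, but -0.0733 with fold enrichment as height and -0.00827 after quantile normalization. Members can hold several motifs, and no test was made of the difference between classes.

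**Figure D4:**
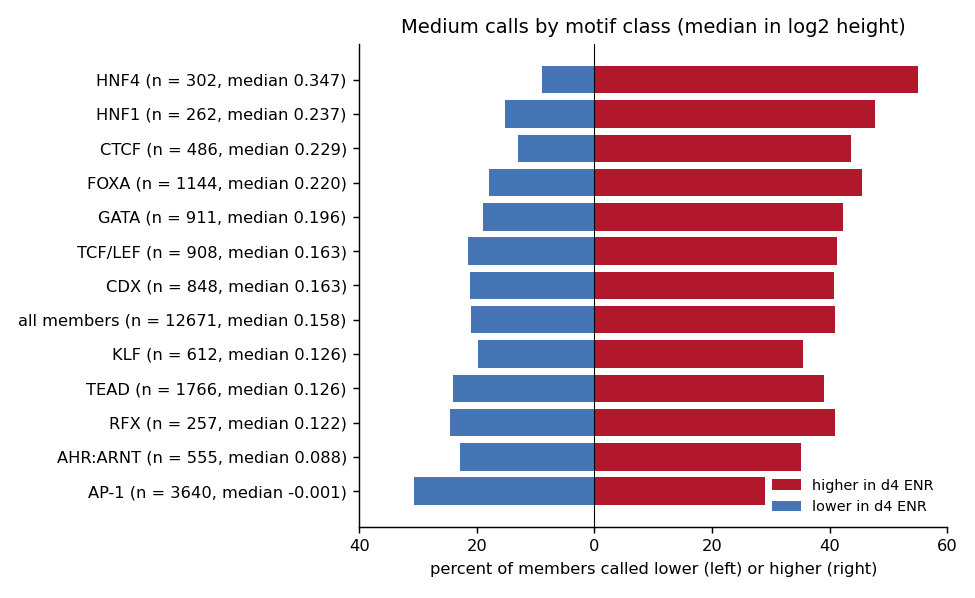
Percent of members called lower (blue, left) or higher (red, right) in d4 ENR for each motif with at least 100 members, sorted by the median log2 height difference, which is given with n at each bar. HNF4 members are at one end, with 55.0% higher and 8.94% lower, and AP-1 members at the other, with 29.0% higher and 30.7% lower. Among all tested regions, which are not drawn, the shares were 49.5% and 10.1% for HNF4 and 27.5% and 28.6% for AP-1.

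Among single members, the largest rise was in a region 68654 bp from *Lcorl* (chr5:45925821-45926717). Its relative height was 0.150 and 0.143 in WT WENR, 0.156, 0.114 and 0.131 in AHR KO WENR, 0.960, 1.18 and 1.34 in WT d4 ENR and 1.13 and 1.07 in AHR KO d4 ENR. The groups were far apart, with a log2 difference of 3.01 ± 0.13 and an adjusted p of 8.75e-09 (limma). It was among the weak members in WENR, with an unscaled pileup of 14.9 to 19.2 fragments against 24.0 to 65.8 in d4 ENR. For the region nearest *Cyp26b1*, named next, these were 14.0 to 19.7 and 19.8 to 46.6. The others of largest rise lay in an intron of *Exoc6b* nearest *Cyp26b1*, a retinoic acid-degrading enzyme (2.64 ± 0.15), in an intron of *Arfgef3* nearest the haem-binding gene *Hebp2* (2.53 ± 0.13), in *Acer1*, in an intron of *Nrp1*, a semaphorin and VEGF co-receptor (2.43 ± 0.17), and 192206 bp from the epithelial membrane gene *Emp1* (2.39 ± 0.13). The largest falls, beside *Kirrel3* and *Cubn*, were nearest *Atp2b1*, a plasma membrane calcium pump (-1.96 ± 0.16), *Nphp4*, a ciliary gene (-1.89 ± 0.17), *Sorl1*, a sorting receptor (-1.85 ± 0.12), and in an intron of *Stk24*, a kinase (-1.84 ± 0.11). Of these 6, 4 held an AP-1 match, and those nearest *Kirrel3*, *Atp2b1* and *Cubn* were shown above as the AP-1 members that fell most. AP-1 letters were found in 28.7% of all members, 41.9% of those called lower and 20.4% of those called higher. Among the largest rises, the region nearest *Emp1* also held them. The rule that every library hold a peak limits how far a member can fall.

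The members nearest genes of chosen lists are read against all members, of which 40.9% were higher and 21% lower in d4 ENR with a median of 0.158. For the genes of absorptive colonocytes, goblet cells, the AHR pathway and AP-1 factors the shares were near these. The list of absorptive colonocytes had 38 members at 13 genes, of which 17 were higher (44.7%) and 6 lower (15.8%), with a median log2 difference of 0.125. With fold enrichment as height the counts were 18 and 2. In an intron of *Slc26a3*, the chloride-bicarbonate exchanger of the colonocyte surface (chr12:31421210-31422683), relative height was 0.143 and 0.130 in WT WENR, 0.186, 0.146 and 0.145 in AHR KO WENR, 0.668, 0.837 and 1.15 in WT d4 ENR and 0.504 and 0.708 in AHR KO d4 ENR. All d4 ENR values were at least as high as 0.504 and all WENR values at most 0.186, a log2 difference of 2.29 ± 0.16 (adjusted p = 7.86e-08, limma). The region was weak in WENR, with an unscaled pileup of 17.4 to 21.7 fragments against 16.7 to 46.5 in d4 ENR. This rise is therefore relative to the library's middle region. Introns of the same gene held further members at 1.57 ± 0.15 and 1.22 ± 0.16. A region 159776 bp from *Car2*, a carbonic anhydrase, fell (-1.31 ± 0.14).

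Goblet cell genes had 21 members, 10 higher (47.6%) and 3 lower (14.3%), with a median of 0.284, and 7 higher and 4 lower with fold enrichment as height. A region 14041 bp from *Atoh1*, the master regulator of secretory fate, rose from between 0.131 and 0.164 in WENR to between 0.325 and 0.623 in d4 ENR (1.52 ± 0.18). It was weak in both media, with an unscaled pileup of 17.1 to 21.9 fragments in WENR and 9.48 to 27.6 in d4 ENR. The 0.325 of WT d4 ENR 2 was close to the lowest member of that library, 0.309, so this rise is relative to the library's middle region. Regions near *Galnt12*, which starts mucin-type O-glycosylation (1.2 ± 0.15), and in introns of *Sytl2*, a vesicle transport gene (1.2 ± 0.13 and 0.80 ± 0.14), also rose, the last of them with -0.04 by fold enrichment. Enteroendocrine genes had only 2 members, of which the one 52131 bp from *Cck*, a peptide hormone, rose (0.94 ± 0.15, but -0.10 by fold enrichment) and the one in *Nkx2-2* did not pass the test (-0.32 ± 0.15). The intestinal identity factors had 83 members at 18 of 20 genes, with 26 higher (31.3%), 22 lower (26.5%) and a median of 0.0450, below the 0.158 of all members, and 17 higher and 25 lower after quantile normalization. The largest were rises near *Isx*, an intestine-specific homeobox gene (1.77 ± 0.17), and in *Prdm1* (1.54 ± 0.16). Next were regions 194437 bp from *Klf5* (1.33 ± 0.16) and 146388 bp from *Gata6* (1.31 ± 0.17). The *Klf5* region was weak in both media, with an unscaled pileup of 14.6 to 26.6 fragments in WENR and 10.8 to 21.7 in d4 ENR.

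Wnt target and stem cell genes had 71 members at 14 genes, 15 higher (21.1%) and 29 lower (40.8%) with a median of -0.127, but 25 higher and 11 lower with a median of 0.0940 when fold enrichment was the height. Fold enrichment is pileup over the background around the peak in the same library. The region 253032 bp from *Sox9*, a progenitor factor (chr11:113034721-113035791), held both AP-1 and TCF/LEF letters (ATCAAAG). Its relative height was 1.49 and 1.69 in WT WENR, 1.53, 1.72 and 1.85 in AHR KO WENR, 0.568, 0.539 and 0.427 in WT d4 ENR and 0.606 and 0.517 in AHR KO d4 ENR. The log2 difference was -1.62 ± 0.11 (adjusted p = 5.92e-08, limma). Another region of *Sox9*, 435669 bp away, rose (1.24 ± 0.12). A region 478775 bp from *Myc* fell (-1.16 ± 0.11, but 0.19 by fold enrichment), as did one 17650 bp from *Slc12a2*, an ion transporter of crypt base cells (-1.2 ± 0.14).

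Fetal-like and regeneration genes had 21 members, 6 higher (28.6%) and 7 lower (33.3%) with a median of -0.0458, but 7 higher and 2 lower with a median of 0.164 by fold enrichment. The region 5170 bp from the start of *Ly6a*, which encodes Sca-1 (chr15:74991900-74993029), held AP-1 and FOXA letters. Its relative height was 3.11 and 3.47 in WT WENR, 2.86, 3.42 and 3.30 in AHR KO WENR, 1.40, 1.12 and 1.03 in WT d4 ENR and 1.80 and 1.72 in AHR KO d4 ENR. The d4 ENR minus WENR difference was -1.17 ± 0.09 on the log2 scale, but 0.13 by fold enrichment, and within d4 ENR both AHR KO libraries were above the 3 WT libraries (0.58 ± 0.13, adjusted p = 0.0493, limma), a call made in 2 of 10 fits that left out 1 library. The interaction for this region did not pass the test (adjusted p = 0.186, limma). A more distant region of *Ly6a* (-0.98 ± 0.10, but 0.01 by fold enrichment), 1 near *Areg*, an EGF receptor ligand (-0.79 ± 0.12), and 1 near *Ly6e* (-0.68 ± 0.12) also fell.

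Yap/Tead target genes had 39 members at 12 genes, 11 higher (28.2%) and 12 lower (30.8%) with a median of -0.104, but 14 higher and 8 lower with a median of 0.0450 by fold enrichment. Regions 181733 and 40096 bp from *Asap1*, an Arf GTPase-activating gene, fell (-1.29 ± 0.13 and -1.10 ± 0.10). A region 16237 bp from *Ccn1*, a secreted matrix protein, rose (1.26 ± 0.10). So did one whose nearest start, that of *Crim1*, lay 1000585 bp away (1.33 ± 0.11). Motility and adhesion genes had 37 members at 16 genes, 8 higher (21.6%) and 17 lower (45.9%) with a median of -0.226, but 19 higher and 4 lower with a median of 0.230 by fold enrichment. A region nearest *Myo1a*, a brush border myosin, rose (0.89 ± 0.18, but -0.02 by fold enrichment).

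AP-1 factor genes had 25 members, 9 higher (36%) and 5 lower (20%), with a median of 0.104, and 5 higher and 5 lower after quantile normalization. The largest differences were rises in regions 81458 to 226752 bp from *Jun*, an AP-1 subunit, and in a region near *Atf3*, a stress-induced factor (1.10 ± 0.14). Those of *Jun* were 1.22 ± 0.12, 1.13 ± 0.14 and 1.06 ± 0.12, of which the first was -0.05 by fold enrichment. AHR pathway genes had 12 members at 5 genes, 5 higher (41.7%) and 2 lower (16.7%) with a median of 0.0432, and 1 higher and 0 lower by fold enrichment. The region 18899 bp from *Nfe2l2*, the oxidative stress regulator Nrf2 (chr2:75722874-75724207), rose from between 0.128 and 0.186 in WENR to between 0.522 and 0.919 in d4 ENR (2.23 ± 0.17), and a second one nearest that gene rose less (0.67 ± 0.18, but -0.21 by fold enrichment). The unscaled pileup of the first was 15.1 to 23.6 fragments in WENR and 15.2 to 46.5 in d4 ENR, ranges that overlap. A region near *Arnt2*, a relative of the AHR partner ARNT, rose (0.88 ± 0.14, but -0.05 by fold enrichment). A region 136986 bp from *Ahr* fell (-0.82 ± 0.17), with 0.377 and 0.440 in AHR KO and 0.298 to 0.559 in WT d4 ENR.

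The highest members were unlike the rest. An exon of *Lars2* (chr9:123461800-123462187) stood at 14.2 to 16.4 times the middle region in WENR and 27.6 to 52.8 times in d4 ENR, with regions nearest *Esp38* (chr17:39846689-39847422) and *Gm8797* (chr3:5860341-5860628) next. Per 10M fragments the *Lars2* region held a pileup of 405 to 459 in WENR and 367 to 522 in d4 ENR, ranges that overlap, whereas the median member did not overlap between media. The relative rise of these 3 regions (1.14 to 1.21 on the log2 scale) is close to the 1.13 by which all regions fell without centring. No filter for repeated sequence or uncertain mapping was applied to members here. Whether the height of these 3 regions comes from mapping was not tested. The lowest members, nearest *Ctsk*, *Bcl7c* and *Appl2*, stood between 0.107 and 0.174 in WENR and between 0.214 and 0.490 in d4 ENR. The members of smallest range were nearest *1700016C15Rik* (2.28 to 2.54 over all libraries), in *Arntl* and nearest *Slc38a10* (2.76 to 3.10).

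Few members differed between the genotypes. In WENR, 28 of 12671 members differed (0.221%, against 0.131% of all regions), 6 higher and 22 lower in AHR KO. With fold enrichment as height the same test (limma) called 0, with 562 at an unadjusted p under 0.05, against 1435 for pileup. In d4 ENR, 188 differed (1.48%, against 1.05%), 68 higher and 120 lower. The larger number of lower calls depended on the scaling, with 94 higher and 84 lower when centred on distal regions, 376 and 258 by fold enrichment, 82 and 29 by pileup times length and 273 and 230 after quantile normalization. Each of the 28 calls in WENR and 188 in d4 ENR by centred pileup had libraries of the genotypes that did not overlap. Without regard to calls, AHR KO libraries were all above WT libraries in 14.6% of members in WENR and 12.5% in d4 ENR (14.4% and 12.8% of all regions) and all below them in 21.5% and 23.2% (16.9% and 19.0%). Only 7 members were called in both media, all 7 with the same sign. The count in d4 ENR depended on single libraries. It was 1231 without WT d4 ENR 1 and 1061 without WT d4 ENR 3, but 5 without WT d4 ENR 2, 2 without AHR KO d4 ENR 1, 16 without either WT WENR library and 32, 13 and 83 without AHR KO WENR 1, 2 and 3. Scaled by fragment total without centring, 7922 members were higher in AHR KO d4 ENR and 7 lower, and these libraries also had the larger share of coverage in peaks and the longer fragments. The part of either in the genotype calls was not tested. In WENR the count was 1 and 2 without WT WENR 2 and 1, 3 and 11 without AHR KO WENR 2 and 3, 8 without WT d4 ENR 2, 18 without AHR KO d4 ENR 2 and 117 without WT d4 ENR 1.

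Chromosome Y aside, the share of members with a genotype call was highest on chromosome 12, which carries *Ahr*. It held 509 members (4.02%), but 9 of the 28 calls in WENR (32.1%) and 19 of the 188 in d4 ENR (10.1%). The called members on this chromosome lay between 16.7 and 111 Mb, and *Ahr* lies at 35.5 Mb. Among the members with genotype calls in d4 ENR, 1 higher and 6 lower lay within 15 Mb of *Ahr*, of 96 members there. Members called in d4 ENR made up 3.73% of members on chromosome 12 and 0.707% to 2.66% on the other autosomes. By number, chromosome 5 held more of the d4 ENR calls, 21 among 800 members. Of the 5 members on chromosome Y, 2 were called in WENR and 3 in d4 ENR. With another height, scaling or library left out, chromosome 12 held 16.2% to 100% of the WENR calls and, apart from scaling by fragment total alone (3.96%), 5.21% to 100% of the d4 ENR calls. In the WENR fits that gave 1 to 3 calls, all were on chromosome 12. Per the study's methods the floxed *Ahr* came from targeted embryonic stem cells, and the mice shared a C57BL/6 background with littermate controls. An effect of DNA inherited together with that allele and an effect of the loss of AHR cannot be told apart in these libraries.

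Of the 349 members at genes of the lists, 10 differed between genotypes in d4 ENR, 4 higher and 6 lower in AHR KO, and none in WENR, where the background over members was 0.221%. The AHR pathway had 3 of them among its 12 members, all nearest *Ahr* itself on chromosome 12. The 10 are named because they were called, that is after their values were seen. At 149469 bp from its start (chr12:35376157-35378463) relative height was 0.812 and 0.825 in WT WENR, 0.480, 0.362 and 0.325 in AHR KO WENR, 0.555, 0.832 and 0.824 in WT d4 ENR and 0.359 and 0.306 in AHR KO d4 ENR. Every AHR KO library was below every WT library, with a difference in d4 ENR of -1.13 ± 0.21 (adjusted p = 0.0308, limma). The region at 66424 bp was also lower (-0.93 ± 0.18) and the one at 44481 bp higher (0.76 ± 0.16), and each of the 3 was called in 3 or 4 of 10 fits that left out 1 library. The others lay nearest *Myc* (0.71 ± 0.12 and -0.58 ± 0.11), *Klf5* (-0.95 ± 0.19), *Slc26a3* (-0.81 ± 0.17), *Jun* (-0.82 ± 0.19), *Cdh17* (0.48 ± 0.11, but -0.12 by fold enrichment) and *Ly6a*, each called in 2 to 4 of those 10 fits. Goblet, enteroendocrine and Yap/Tead target genes had none among 21, 2 and 39 members, which at a background of 1.48% says little about these lists.

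**Figure D5:**
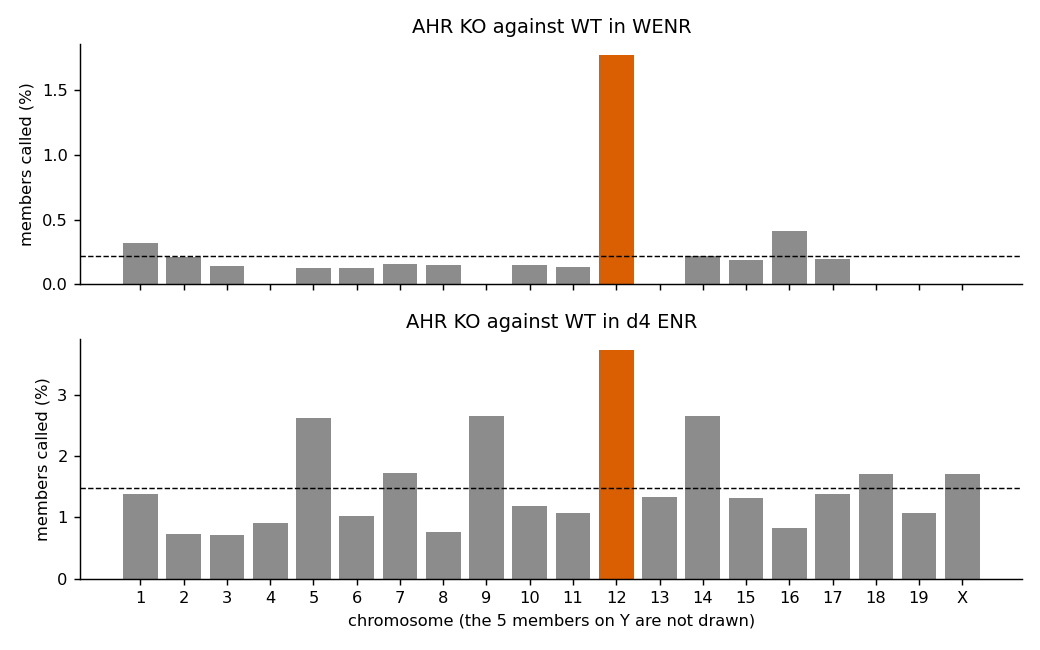
Percent of members on each chromosome whose height differed between AHR KO and WT, in WENR (top) and d4 ENR (bottom). Dashed lines mark the share over all members (0.221% and 1.48%), and chromosome 12, which carries *Ahr*, is orange. It has the highest bar in both panels, 1.77% and 3.73%, and chromosome Y with 5 members is not drawn.

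The largest genotype differences included several regions of chromosome 12. A region beside the start of a gene that is not protein-coding, 242414 bp from *Gm21863* (chr12:20196146-20197693), had relative heights of 0.703 and 0.628 in WT WENR, 1.40, 1.71 and 1.46 in AHR KO WENR, 0.861, 0.768 and 0.854 in WT d4 ENR and 2.78 and 2.46 in AHR KO d4 ENR. Every AHR KO library was above every WT library. The log2 difference was 1.19 ± 0.13 in WENR (adjusted p = 0.000911, limma) and 1.66 ± 0.13 in d4 ENR (adjusted p = 3.86e-05, limma), and it was called in d4 ENR in 10 of 10 fits that left out 1 library. Near *Hif1a*, the hypoxia factor (chr12:73871890-73874141), the values were 1.33 and 1.10 in WT WENR, 0.403, 0.428 and 0.280 in AHR KO WENR, 1.06, 1.01 and 0.999 in WT d4 ENR and 0.385 and 0.457 in AHR KO d4 ENR. This was lower in AHR KO by 1.73 ± 0.18 in WENR and 1.28 ± 0.18 in d4 ENR, but 0.67 higher in WENR, not passing the test, with fold enrichment as height.

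Other members lower in AHR KO in WENR were nearest *Dact1*, a Wnt pathway modulator (-1.85 ± 0.21), *Adam28*, a metalloprotease (-1.83 ± 0.30), *Greb1* (-1.66 ± 0.29) and 2 regions of *Gm47283* on chromosome Y (-1.70 ± 0.30 and -1.56 ± 0.26). Members higher in AHR KO in WENR were 2 in introns of *Stk39*, a kinase of ion transport (1.41 ± 0.24 and 1.19 ± 0.19), and those nearest *Adgrg6*, an adhesion receptor (0.92 ± 0.14), *Id2*, an inhibitor of differentiation factors (0.92 ± 0.16), and *Dynlt1b*, a dynein light chain (0.84 ± 0.12). By fold enrichment the WENR differences of 1 *Stk39* region, *Dynlt1b*, *Dact1* and 1 *Gm47283* region had the other sign (-0.03, -0.11, 0.05 and 0.06), as did *Id2* by pileup times length (-0.34). Of the 10 fits that left out 1 library, the WENR call was made in 9 for *Dact1*, *Hif1a* and *Gm21863*, 7 for *Dynlt1b*, 6 for *Adgrg6* and 1 *Stk39* region, 5 for *Adam28* and 1 *Gm47283* region, 4 for *Greb1*, and 3 for *Id2* and the other *Stk39* and *Gm47283* regions.

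Among the members higher in AHR KO in d4 ENR, beside that of *Gm21863*, were those nearest *Spp2* (1.18 ± 0.18), *Dmp1* (1.04 ± 0.19) and *Dynlt1b* (1.0 ± 0.12). Members lower in AHR KO d4 ENR were in *Mid1* on chromosome X (-1.93 ± 0.37) and nearest *Adam28* (-1.73 ± 0.30), *Arhgap5* (-1.52 ± 0.20), *Tmem30b* (-1.52 ± 0.16), *Tmem267* (-1.44 ± 0.26) and *Gm47283* (-1.43 ± 0.30). The regions of *Mid1* and *Gm47283* lie in the stretch that the X and Y chromosomes share, and *Dynlt1b* belongs to a family of near-identical copies, so reads there may belong to either copy. Of the 10 fits that left out 1 library, the d4 ENR call was made in 10 for *Tmem30b*, 9 for *Dynlt1b*, 8 for *Spp2* and *Arhgap5*, 7 for *Adam28*, 5 for *Tmem267*, 4 for *Dmp1* and 3 for *Mid1* and *Gm47283*.

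Genotype differences by motif class are given as medians, and no test was made between classes. In d4 ENR the median log2 difference, AHR KO minus WT, was -0.0868 in AP-1, -0.0580 in TEAD, -0.116 in HNF4, -0.130 in CTCF, -0.129 in KLF (GGGCGTG), 0.0112 in HNF1 and -0.0844 in AHR:ARNT members, against -0.0745 over all members and -0.0511 over all regions. Of the 555 AHR:ARNT members 1 was higher and 4 were lower, and of the 262 HNF1 members 3 were higher and 0 lower. Beside the 1.48% of all members and 1.05% of all regions called in d4 ENR, these counts are too few to give a direction for either motif. Among all tested regions with AHR:ARNT letters 5 were higher and 9 lower. In WENR, CDX members had a median of -0.0925, against -0.0246 over all members. The CDX medians were 0.737 and 0.741 in WT WENR and 0.710, 0.695 and 0.647 in AHR KO WENR, which do not overlap. With fold enrichment as height the WENR median of CDX members was -0.00702.

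No member passed the test for a genotype difference that changed between the media. The interaction test called 0 of 12671 members and 0% of all regions (limma), with 2252 members at an unadjusted p under 0.05. Members with the smallest p lay in introns nearest *Tmem182* (1.63 ± 0.25) and *Tmprss11e*, a membrane serine protease (1.54 ± 0.26), both at an adjusted p of 0.134 (limma), and neither passed. At *Tmem182* relative height was 0.511 and 0.545 in WT WENR, 0.288, 0.273 and 0.199 in AHR KO WENR, 1.15, 1.34 and 1.38 in WT d4 ENR and 2.10 and 1.70 in AHR KO d4 ENR. Without WT d4 ENR 1 the interaction was called in 335 members, and without WT d4 ENR 3 in 72.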

How the data were processed

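Per the file headers and the study's methods, the authors aligned reads with BWA to GRCm38 and ran MACS 2.2.7.1 on the fragments of 1 library at a time, with broad peaks, no control, q limits of 0.05 and 0.1 (broad) and a background window of 10000 bp. The deposited pileup is a coverage signal in fragments, not scaled for depth. The authors' fold enrichment over local background and −log10 q values from the same lists were used only in alternatives.

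Height was the length-weighted mean pileup of a library's peaks in a region, taken as log2 and centred on the library's median over regions called in every library. It was fitted with limma 3.58.1 (R 4.3.3, limma-trend) with 4 groups as one factor over all 28205 such regions, with Benjamini-Hochberg adjustment and a threshold of 0.05. Regions, distances and motifs were computed with Python 3.11.15 and GENCODE release 21 of mouse (M21). Matches were searched in the reference on both strands.

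Members and lists were chosen with earlier results of these data known. Named regions were the 6 of largest difference per contrast and direction with no overlap of libraries, the extremes of height and range, those at the limits, and up to 4 per gene list. Some regions and genes that these rules and lists select are not reported here and were not replaced. Counts per region, used in the study's own test, were not used here. The procedure was tested on simulated data. Depth limits precision, since the lowest member pileups in d4 ENR were 9.00 to 12.0 fragments. Alternatives were other heights and scalings, stricter calls, a replicate block and each library left out.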

Additional observations from a re-analysis of the deposited data

How the results depend on the processing

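The number of regions that met the rule was 8407 with every list shortened to the length of the shortest, 5180 at a −log10 q of at least 5 and 4819 where peaks had to cover 50% of a region, and 12698 to 17657 with each library left out, the highest without WT d4 ENR 1. The medium count was 2997 among members called at a −log10 q of at least 5, 11876 with membership and fit without WT d4 ENR 1, and 6579 to 8406 with each library left out. The median medium difference was 0.0098 with fold enrichment, 0.134 with background subtraction, 0.100 with pileup times length, 0.137 with promoter centring and -1.07 scaled by fragment total without centring, and 0.1497 to 0.1666 with each library left out. The WENR genotype count was 0 with fold enrichment or scaling by fragment total, 3 with pileup times length, 4 after quantile normalization, 7 at a −log10 q of at least 5, 140 with membership and fit without WT d4 ENR 1, and 1 to 117 with each library left out. The d4 ENR genotype count was 634, 111, 7929, 503, 81 and 1482 with fold enrichment, pileup times length, scaling by fragment total, quantile normalization, the stricter q and without WT d4 ENR 1 throughout, and 2 to 1231 with each library left out. The interaction count was 2016 scaled by fragment total, 357 without WT d4 ENR 1 throughout, and 0 to 335 with each library left out. The cause of these changes was not tested. The share of members with a CTCF match was 1.93% in 200 bp, 8.56% in 1000 bp and 11.5% in the whole region, against 3.90%, 11.6% and 12.7% of all consensus regions.

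Deviations of same-numbered libraries of the 2 genotypes correlated at 0.405 and 0.0522 in WENR and 0.29 and 0.161 in d4 ENR, all above 0, while the 9 pairs between media lay between -0.202 and 0.00398. In a group of 2 libraries the deviations mirror each other, so the values within a medium are not independent. They cannot settle whether the libraries are paired. Since not every pair was above 0.1, the libraries were not treated as paired. With the replicate number as a block the counts were 7847 for medium, 13 and 298 for genotype in WENR and d4 ENR and 0 for the interaction, and 7425 for medium with genotype and number as a block.

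With fold enrichment as height, these regions changed sign: in WENR by genotype, *Stk39* at 68420724 (-0.03), *Dynlt1b* (-0.11), *Dact1* (0.05), *Hif1a* (0.67) and *Gm47283* at 90807007 (0.06), and by medium *Ffar4* (0.08), *Sh3bp4* (0.02), *Mtrex* (-0.07), *Ly6a* (0.13 and 0.01), *Myc* (0.19), *Sytl2* (-0.04), *Cck* (-0.10), *Arnt2* (-0.05), the second *Nfe2l2* region (-0.21), *Jun* (-0.05) and *Myo1a* (-0.02). *Id2* by genotype in WENR was -0.34 with pileup times length, and the second *Nfe2l2* region -0.03 after quantile normalization. Of 1344 other fits of 84 named results, 1161 kept direction and side of the threshold, 152 lost the call, 12 gained it and 19 changed sign. Where an arm was left with 1 library, it was assumed to vary like the others. Promoter and distal centring, for the counts, the gene lists, motif classes and chromosome shares under other settings and membership without WT d4 ENR 1 were chosen after seeing the data.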
